A study of Mus musculus with 2 samples.

Results

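The BCL2 family apoptosis regulators described here are 10 mouse genes, chosen by name: the survival genes Bcl2, Bcl2l1, Mcl1 and Bcl2a1d, the effectors Bax and Bak1, and the BH3-only genes Bid, Bcl2l11, Bbc3 and Pmaip1. Every probe set whose only annotated symbol was one of these genes was taken, which gave 27 of the 45037 probe sets and 8 of the 18193 genes. Bcl2a1d shared all its probe sets with paralogs and no probe set was annotated to Bax, so those members have no value of their own and Bax was not analysed here. The samples were peritoneal macrophages of male C57BL/6 mice, 48 h after transfection, with 1 array for cells given control siRNA and 1 for cells given HDAC9 siRNA. HDAC9 is a histone deacetylase of class IIa. The cells carried no other labelled treatment or allele, and whether mice were pooled is not stated in the labels. The comparison asks whether transcripts of the death and survival arms of this family differ when HDAC9 is targeted.

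BCL2 family proteins decide whether the outer mitochondrial membrane stays intact. Survival members hold the effectors BAX and BAK in check, BH3-only proteins relieve that restraint or activate the effectors directly, and active BAX or BAK opens pores through which cytochrome c escapes and starts the caspase cascade. Macrophages depend on this balance because they live long, take up toxic cargo and survive inflammatory signals, and MCL1 and the BCL2A1 proteins are survival factors known from myeloid cells.

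The deposited values are log2 signals, and signals of different probe sets are not comparable as amounts of mRNA because probes differ in how well they hybridise. A probe set counted as above background when its log2 signal exceeded 6.34, the 95th percentile of 80 olfactory and vomeronasal receptor probe sets. Signals under this floor were set to it, and a ratio is the HDAC9 siRNA value minus the control value on the log2 scale. Where signals are given as a pair, the control array comes first. Since each group has 1 array, spread between cultures is unknown and no test was possible, so all differences below are between 2 arrays. The only internal yardstick was the scatter of ratios between probe sets of the same gene, 0.29 log2 units (1 SD, over 5671 genes), which leaves out differences between cultures. Hdac9 itself was dim: its brighter probe set read 6.88 and 5.69, the second value below background, which puts it at least 1.46-fold lower after HDAC9 siRNA. Its other probe set was below background on both. Of 12 macrophage markers, 10 were above background on both arrays, among them Lyz2 (log2 14.7 on each) and Csf1r (13.9 and 13.7). Cd163 and Timd4 were below it on both. Over all genes, 10732 of 18193 were above background on both arrays. All 11 mesothelial and stromal markers were above it on both as well, and the part of such cells in the BCL2 family values was not tested.

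By its brightest probe set, none of the 8 measured BCL2 family genes differed between the arrays by as much as 1.5-fold. Taking the brightest probe set of each gene, log2 ratios ran from -0.13 for Pmaip1 to 0.23 for Bbc3, with a median of 0.04, against 0.03 over all 12090 genes above background. At 2-fold or more, the count was 0 of 8 genes, and 1.81% of all genes passed that threshold. Over their 23 probe sets above background the count was also 0, against 1.95% of all such probe sets. At 1.5-fold the count was also 0 of 8, where 10.6% of all genes passed. All 8 ratios lay inside the single-probe-set scatter, as did those of 65.7% of all genes. With 8 genes, a count of 0 is close to these background shares.

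**Figure D1:**
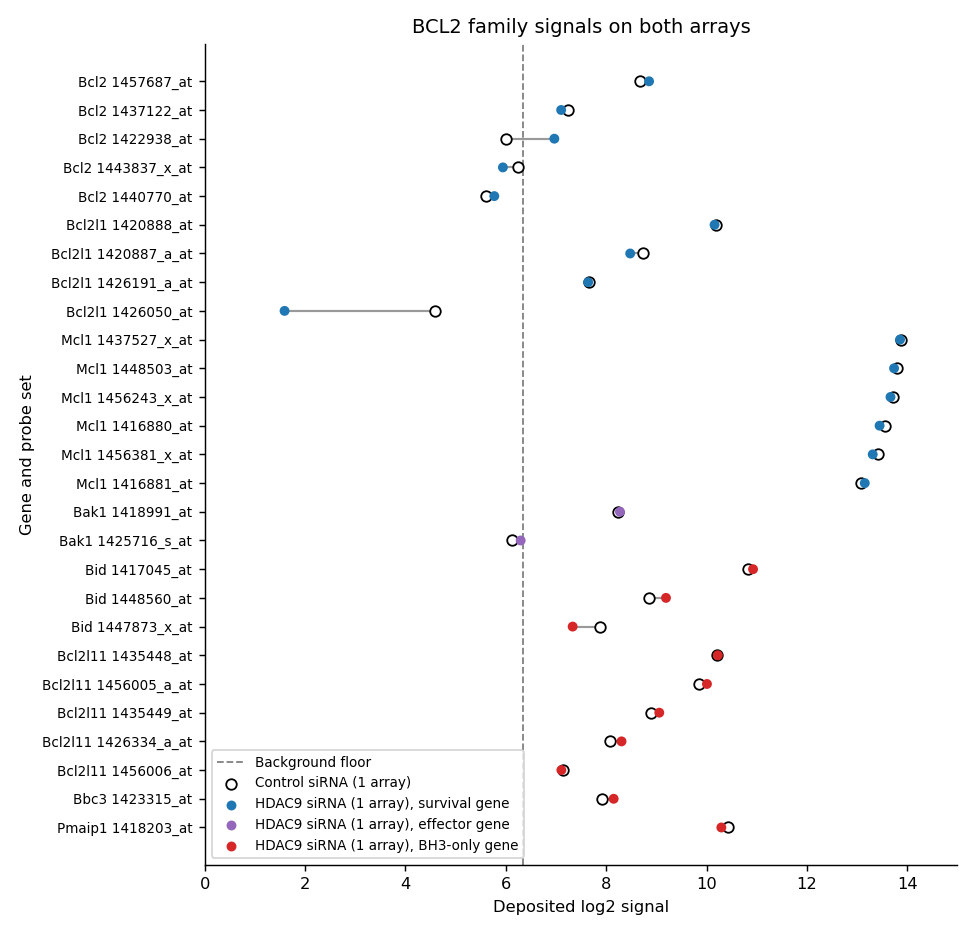
Deposited log2 signals of the 27 BCL2 family probe sets, with the control siRNA array as open circles and the HDAC9 siRNA array as filled circles coloured by role; the dashed line is the background floor at 6.34. The paired circles nearly coincide for most probe sets above the floor, and the widest separations belong to a Bcl2l1 and a Bcl2 probe set with a signal below it.

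Among the survival genes, Mcl1 was bright on both arrays by each of its probe sets, with ratios close to 0. It encodes a short-lived survival protein that many immune cells cannot do without. Its brightest probe set, 1437527_x_at, had log2 signals of 13.87 and 13.86, a ratio of -0.02. All 6 Mcl1 probe sets lay between 13.1 and 13.9 on both arrays, and their ratios ran from -0.11 (1416880_at, 13.56 and 13.45) to 0.07 (1416881_at, 13.08 and 13.15). Thus 5 probe sets were slightly lower and 1 slightly higher, over a span of 0.19, whereas the 165 genes with at least 6 probe sets above background had a median span of 0.74. The 3 Mcl1 probe sets with names ending in _x_at, a suffix for sets whose probes can match other transcripts, gave ratios of -0.02, -0.05 and -0.10, inside the range of the other 3.

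Bcl2l1, which encodes the survival protein BCL-xL and, through alternative splicing, the death-promoting BCL-xS, was lower by every probe set above background, by small amounts. The brightest, 1420888_at, had signals of 10.19 and 10.16 (ratio -0.04). The next, 1420887_a_at, read 8.72 and 8.48 (-0.25), and 1426191_a_at read 7.66 and 7.64 (-0.02). All 3 ratios are smaller than the scatter of 0.29. The fourth, 1426050_at, read 4.58 and 1.59, below background each time, so its deposited difference of -2.99 gives no ratio. The suffix _a_at marks probe sets that read several transcripts of the same gene.

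Bcl2, the founding survival gene of the family, had probe sets that differed from each other. The brightest, 1457687_at, was slightly higher on the HDAC9 siRNA array (8.66 on the control array and 8.85, ratio 0.19). The second, 1437122_at, was slightly lower (7.24 and 7.10, ratio -0.14). Probe set 1422938_at, was below background in control cells at 6.00 and above it after HDAC9 siRNA at 6.97, which puts it at least 1.54-fold higher (log2 0.63, a bound). It was the only one of 23 BCL2 family probe sets above background past 1.5-fold, a threshold passed by 11.6% of all 21955 such probe sets with 1 gene symbol. The remaining Bcl2 probe sets, 1443837_x_at (6.23 and 5.94) and 1440770_at (5.61 and 5.77), were below background on both arrays. The 3 ratios, with the bound counted at its value, spanned 0.77. The 1464 genes with 3 probe sets above background, of any signal, had a median span of 0.42.

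Bcl2 is abundant in lymphocytes, whose transcripts can be present in peritoneal macrophage preparations, and T cell markers were lower on the HDAC9 siRNA array. Of 8 T cell markers with a probe set, 4 exceeded background in control cells and 3 after HDAC9 siRNA, with log2 summed signals of 10.76 and 10.07. Summed signals, here and below, cover every marker with a probe set, including those below background. Lat was at -0.77, Thy1 at -0.72, Cd28 at -0.64 and Cd8a at -0.79 as a bound, while the defining markers Cd3d, Cd3e, Cd3g and Cd4 were below background on both arrays. B cell markers were above background for 1 of 7 genes in control cells and 2 after HDAC9 siRNA. Their log2 summed signals of 8.75 and 8.95 thus include several markers below background. The part of these cells in the Bcl2 values was not tested. In bulk RNA, fewer cells of a type and less RNA per cell cannot be told apart.

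The Bcl2a1 paralogs, survival genes induced by NF-kappaB in myeloid cells, were read only by probe sets that the annotation assigns to several of them together. Probe set 1419004_s_at, listed for Bcl2a1a, Bcl2a1b and Bcl2a1d, was bright on both arrays (13.88 and 13.81, ratio -0.07). A second set for the same 3 genes, 1437913_at, read 7.73 and 7.53 (-0.20). Probe set 1450812_at, which also lists Bcl2a1c, was below background on both at 4.14 and 4.17. These values belong to the group of paralogs and cannot be divided among them, so they enter no count of members. Neutrophil markers, listed because neutrophils also express these genes, were above background for 4 of 8 genes on each array, with log2 summed signals of 10.71 and 10.75, while S100a9, Camp, Ngp and Elane were below background on both.

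Of the effectors, Bak1 could be measured by 1 probe set. BAK sits in the outer mitochondrial membrane and forms the pores that release cytochrome c. Probe set 1418991_at had signals of 8.23 and 8.27, a ratio of 0.05. Its other probe set, 1425716_s_at, was just below background on both arrays at 6.13 and 6.30. Bak1 therefore showed no difference at this precision, and 85.7% of all genes above background had a ratio at least as large in either direction.

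Among the BH3-only genes, Bbc3 and Pmaip1 had the largest ratios of the 8 genes in opposite directions. Both are textbook targets of p53: Bbc3 encodes PUMA, which binds every survival member, and Pmaip1 encodes NOXA, which chiefly binds MCL1. Bbc3 had signals of 7.92 and 8.15 (ratio 0.23, 1.17-fold higher on the HDAC9 siRNA array). Pmaip1 had signals of 10.42 and 10.29 (-0.13, 1.09-fold lower). Each rests on 1 probe set, and 44.3% of all genes had a ratio at least as large as that of Bbc3 and 65.6% as that of Pmaip1.

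Bcl2l11 encodes BIM, the BH3-only protein best known for ending the life of blood cells deprived of growth factors. It was measured by 5 probe sets above background on both arrays, 4 of them slightly higher on the HDAC9 siRNA array. The brightest, 1435448_at, had signals of 10.20 and 10.22 (0.02). The sets 1456005_a_at (9.85 and 10.01), 1435449_at (8.90 and 9.06) and 1426334_a_at (8.08 and 8.31) gave ratios of 0.16, 0.16 and 0.23, and 1456006_at (7.13 and 7.11) gave -0.02. Their median was 0.16. The span of 0.25 compares with a median of 0.66 among 249 genes with 5 probe sets above background, not matched for signal. Each single ratio is below the scatter of 0.29.

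Bid, whose protein links death receptors to mitochondria after cleavage by caspase-8, had the widest span among ratios measured above background on both arrays. The brightest, 1417045_at, had signals of 10.83 and 10.93 (0.09), and 1448560_at had 8.85 and 9.19 (0.34). The dimmest, 1447873_x_at, went the other way, from 7.89 to 7.33 (-0.55, 1.47-fold lower). Their span of 0.89 compares with the median of 0.42 given above for genes with 3 probe sets, of any signal. The Bid ratios of 0.34 and -0.55 and the Bcl2 bound of 0.63 were the 3 of 23 member ratios outside the scatter, and each came from a probe set other than the brightest.

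**Figure D2:**
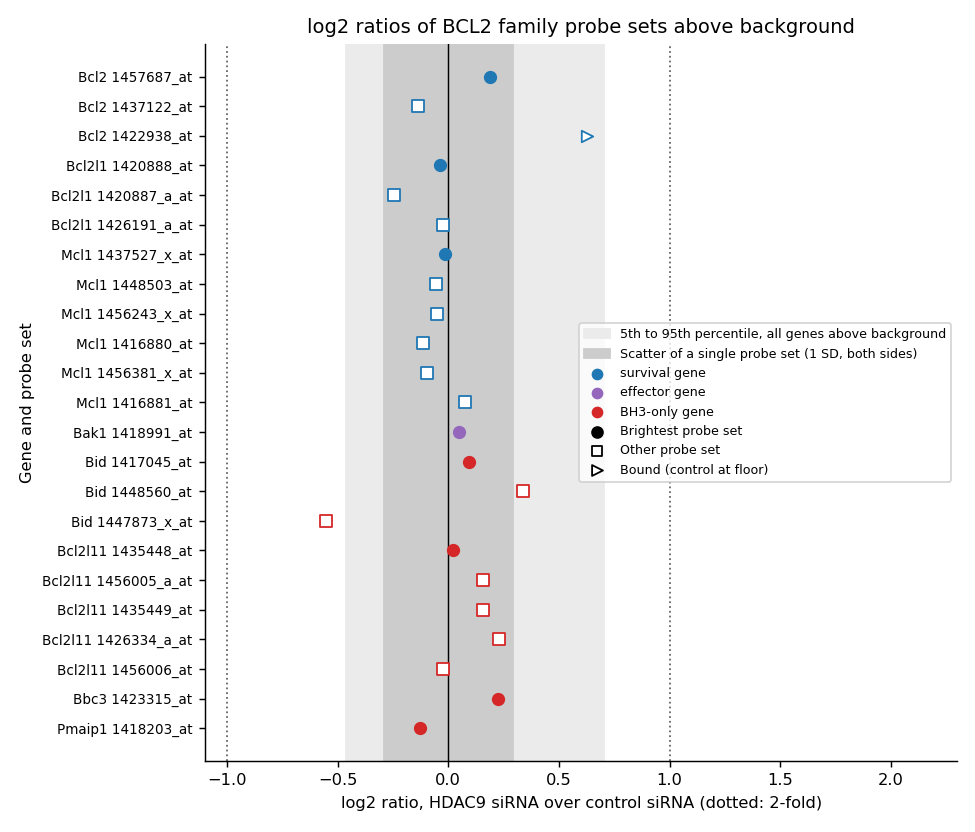
log2 ratios of the 23 BCL2 family probe sets with a signal above background on either array, coloured by role, with filled circles for the brightest set of each gene, open squares for the others and a triangle for a bound. The dark band is the single-probe-set scatter of 0.29 and the light band the 5th to 95th percentile of all genes (-0.46 to 0.71). A total of 20 points lie in the dark band, and the Bid sets point in opposite directions.

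Survival and death genes did not separate. The 3 measured survival genes had a median log2 ratio of -0.02, from -0.04 to 0.19, with 1 above 0 and 2 below. The 5 measured death genes had a median of 0.05, from -0.13 to 0.23, with 4 above 0 and 1 below, and 54.1% of all genes had a ratio above 0. The ranges overlapped over most of their length, and the medians differed by -0.07 (survival minus death). That difference turned to 0.05 after quantile normalization and to 0.03 after loess on signal, so its direction depends on the scaling. The bright shared Bcl2a1 set, at -0.07, fell within the range of the death genes too. Over single probe sets of all 8 genes, 11 ratios were above 0 and 12 below, with a median of -0.02.

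The size of ratios depends on signal, so each gene was also set beside genes of similar brightness. All genes above background were divided into 4 equal groups by mean signal. The 5th to 95th percentile of ratios ran from -0.64 to 0.87 in the dimmest group and from -0.34 to 0.37 in the brightest. None of the 8 genes fell in the dimmest group. Bcl2, Bak1 and Bbc3 were in the second, Bcl2l1, Bcl2l11 and Pmaip1 in the third, and Mcl1 and Bid in the brightest. All 8 had a ratio smaller in size than the median of their own group, by a wide margin for Mcl1 (92.0% of its group had a ratio at least as large) and Bcl2l11 (92.5%) and a narrow one for Bbc3 (52.5%). The median size of the 8 ratios was 0.07, against 0.20 over all genes. For genes with several probe sets, these figures describe the brightest set and not the wider spread shown by Bid and Bcl2.

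**Figure D3:**
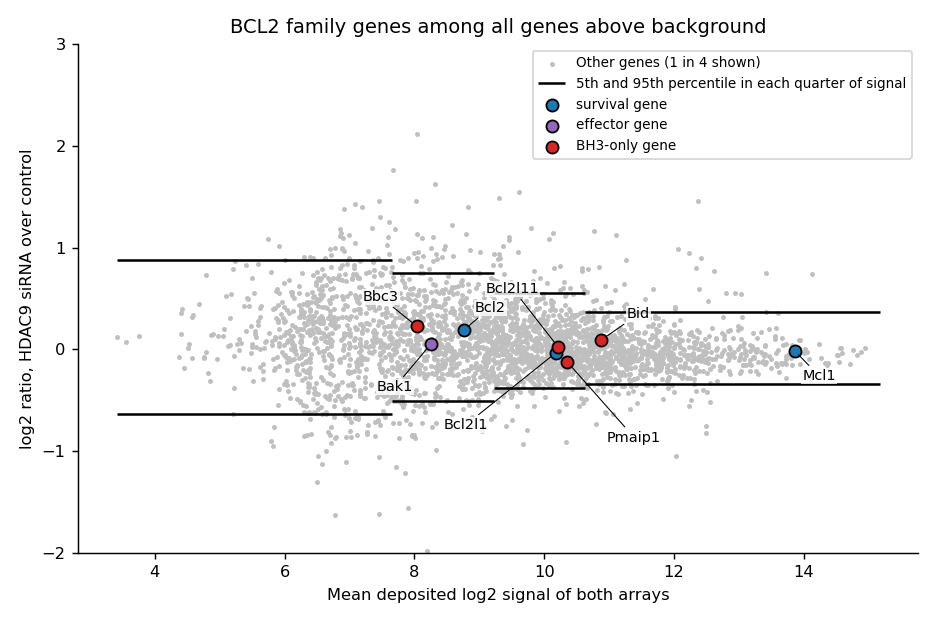
log2 ratio against mean deposited log2 signal for the 8 BCL2 family genes, each by its brightest probe set, over 1 in 4 of the other genes above background (grey). Black bars mark the 5th and 95th percentiles in each of 4 equal groups by signal. All 8 genes lie between the bars, from a ratio of -0.13 for Pmaip1 to 0.23 for Bbc3.

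Genes that act with the BCL2 family were read from 8 lists. Besides the members, 84 listed genes had a probe set, and 78 were above background. Past 2-fold, 1 gene was higher after HDAC9 siRNA (1.44% of all genes were) and 0 were lower (0.372% of all genes). The gene was Fas, a death receptor whose signal can reach mitochondria through BID, with signals of 7.79 and 9.01 (2.33-fold higher). It has 1 probe set above background. By its brightest probe set, no other gene of these lists passed 1.5-fold, which 7.81% of all genes passed upward and 2.79% downward. The median ratio of the 78 genes was 0.05.

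The death receptor list, Fas included, had 7 of 8 genes above 0 and a median of 0.21. Of the 8, 6 were above background on both arrays. Over all genes above background, 54.1% were above 0 and the median was 0.03. That median was 0.15 in the dimmest of the 4 groups by signal and 0.08 in the second. Without Fas, a value taken after the data were seen, 6 of 7 genes were above 0 and the median was 0.05. Fadd, the adaptor that recruits caspase-8 to Fas, had signals of 8.86 and 9.42 (0.56), and a second Fadd probe set was at -0.06. Tnfsf10, which encodes the ligand TRAIL, and Tnfrsf10b, its receptor, were below background in control cells (5.62 and 6.26, respectively) and above it after HDAC9 siRNA (6.78 and 6.71), giving bounds of 0.44 and 0.37. Tnfsf10 is inducible by interferon. Tnfsf10 and Tnfrsf10b counted only through the HDAC9 siRNA array, so their ratios could only be above 0. With the floor lowered to the 75th percentile of olfactory and vomeronasal receptor signals, the median of the list with Fas was 0.05. With the floor raised to the 99th, Tnfsf10 and Tnfrsf10b dropped out. Of the 6 genes left, 5 were above 0, and the median was 0.04.

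The p53 pathway list, which shares Fas and Tnfrsf10b with the death receptor list and contains Bbc3 and Pmaip1, had 12 of 16 genes above 0. Its median was 0.14, and 54.1% of all genes were above 0, with a median of 0.03. Of the 16, 15 were above background on both arrays. Tnfrsf10b counted only through the HDAC9 siRNA array, so its ratio could only be above 0. Sesn2, a stress-inducible regulator of growth signalling, was at 0.57 (signals 8.42 and 8.99), with its other probe set at 0.92. Trp53inp1, a stress-induced partner of p53, was at -0.42 (11.69 and 11.27). The listed p53 genes thus did not all share a direction, with 12 above 0 and 4 below, and Bbc3 and Pmaip1 lay on opposite sides. Trp53 itself had no probe set of its own. Transcription factors that act on BH3-only genes had 7 of 9 above 0 and a median of 0.24, beside the same 54.1% and 0.03 over all genes. Jun, which drives Bcl2l11 in neurons deprived of growth factor, was at 0.49. Ddit3, the stress factor CHOP, was at 0.45 with its second probe set at -0.03, and Rela, an NF-kappaB subunit, at 0.31. Foxo3, which binds the Bcl2l11 promoter when growth factor signalling ceases, was at -0.47 by its brightest probe set and up to 0.36 by another. Each of these 4 was short of 1.5-fold. E2f1, named after its values were seen, was at 0.12 by its brightest probe set and -0.99 by its other.

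Downstream of the mitochondria, ratios lay on both sides of 0, as over all genes, of which 54.1% were above 0 (median 0.03). Of 12 apoptosome and caspase genes, 7 were above 0 and 5 below, with a median of 0.04. Dffb, the nuclease that cuts DNA in dying cells, was at 0.44 with its second probe set at -0.06, while Diablo, whose product frees caspases from their inhibitors, was at -0.20 and Cycs, cytochrome c, at -0.19. Casp9, the caspase activated on the apoptosome, was at -0.24 by its brightest probe set and 0.47 by the other. Of 8 inhibitors of apoptosis, 4 were above 0 and 4 below (median 0.04). Xiap, a direct caspase inhibitor, was at -0.35, but its 4 probe sets ran from -0.38 to 0.30. Birc2 was at 0.36 and Birc3 at -0.28; both encode ubiquitin ligases of the TNF receptor complex. Naip6, one of a cluster of near-identical genes that its probes may not tell apart, was at 0.33.

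Lists of relatives, turnover genes and membrane partners of the family had medians close to 0, while single genes and probe sets differed in both directions. Over all genes above background, 54.1% were above 0, with a median of 0.03. Of 11 other BCL2 family genes above background, 4 were above 0 and 7 below, with a median of -0.06. Of the 11, 10 were above background on both arrays. The remaining gene was above it only after HDAC9 siRNA, so its ratio could only be above 0. Bok, an effector relative, was at -0.46 (7.94 and 7.48), Hrk, a BH3-only gene known from neurons, at 0.39 with its second probe set at -0.07, Bnip1 at -0.33 and Bad, a BH3-only gene controlled by phosphorylation, at -0.31, with its second probe set at 0.05. Of 9 genes for turnover of MCL1 and BIM or for their tethering, 4 were above 0 (median -0.04). The dynein light chain gene Dynll2, whose product binds the BH3-only protein BMF, was at 0.30, and both its probe sets were above 0. The others named had probe sets on both sides of 0. The ubiquitin ligase adaptor gene Btrc was at -0.30 by its brightest set, with sets from -0.30 to 0.31. The deubiquitinase gene Usp9x, whose product stabilises MCL1, was at 0.20, with sets from -0.70 to 0.20, and the kinase gene Gsk3b at 0.19, with sets from -0.36 to 0.29. Of 9 outer membrane and calcium channel partners, 3 were above 0 (median -0.09). The calcium channel gene Itpr3 was at 0.28 and the channel gene Vdac3 at -0.15, each by 1 probe set. Itpr2, another calcium channel gene, was at 0.19, with sets from -0.44 to 0.44, and the autophagy gene Becn1, whose product binds BCL2, at -0.27, with sets from -0.27 to 0.53.

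**Figure D4:**
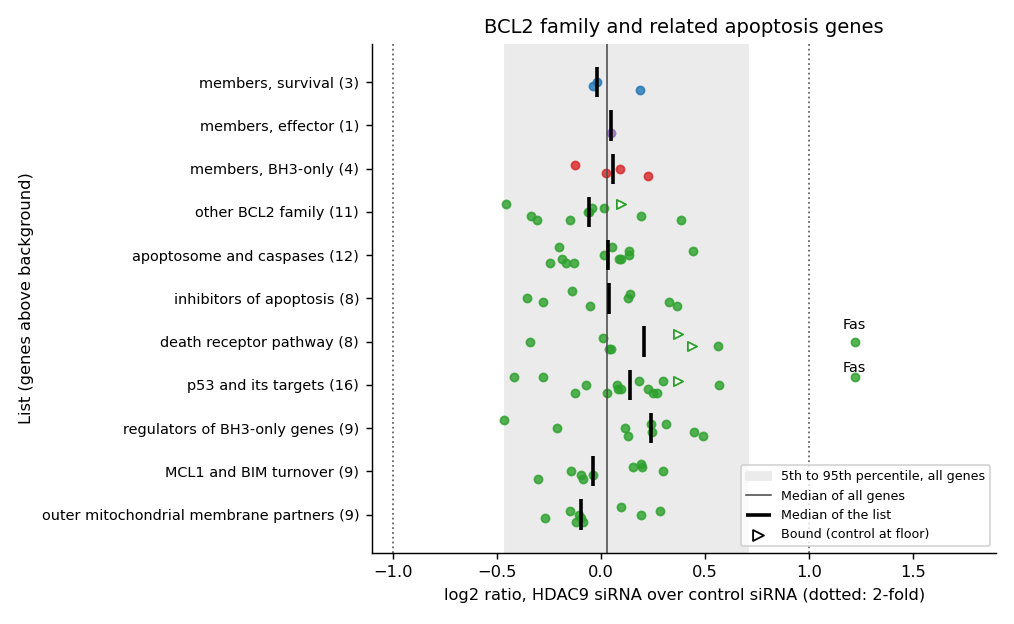
log2 ratios of the BCL2 family genes and of 8 lists of related genes above background, 1 point a gene, with the median of each list as a black bar, triangles for bounds and the 5th to 95th percentile of all genes (-0.46 to 0.71) in grey. Fas, at 1.22, is the gene past 2-fold and stands in 2 lists; the 3 rows of family members cluster around 0.

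Markers of stromal cells, which also express Fas, differed between the same arrays. All 11 mesothelial and stromal markers were above background on both arrays, with log2 summed signals of 14.15 and 14.68, but 5 had a ratio above 0 and 6 below, with a median of -0.10. Col1a1 (1.80) and Col3a1 (1.46) were past 2-fold higher and Msln (-1.11) past 2-fold lower. Of all 18193 genes, 10732 were above background on both arrays. Over all genes above background, 54.1% were above 0, 1.44% were past 2-fold higher and 0.372% past 2-fold lower. Lrrn4 was at 0.56, Wt1 at 0.44 and Upk3b at 0.24, while the keratin genes Krt18, Krt8 and Krt19 were at -0.44, -0.17 and -0.18. The stromal receptor gene Pdgfrb was at -0.18, and Pdgfra was at -0.10 with probe sets up to 0.51. The genes short of 2-fold were named after their values were seen. The part of stromal cells in the Fas value was not tested.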

How the data were processed

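Gene expression was measured on 2 Affymetrix arrays, 1 per group. Values were deposited as log2 signals, 1 per probe set and array, and MAS5 is named in the submitters' processing notes, without settings or detection calls. The authors' scaling was kept. Of 45037 probe sets, 34945 had 1 gene symbol in a platform annotation of 2016, 932 had several and 9160 had none; 34741 matched a RefSeq gene table (GRCm38.p6). Genes took their probe set with the highest mean linear signal. Computation used Python 3.11.15, pandas 2.3.3 and statsmodels 0.14.6. No test, standard error between samples or p-value was possible with 1 array per group, so the number of arrays is what limits precision.

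Named were all members with each probe set, of each related list every gene past 2-fold and up to 4 with the largest ratios, and Hdac9; of the marker lists, other defining markers and those below background were named after their values were seen, as were second probe sets. Members, lists and alternatives were chosen with earlier results of these data known. Alternatives were centring, quantile normalization, loess (span 0.3), a floor at the 99th or the 75th percentile, no floor (pseudocount 1), each gene's median over probe sets, omission of probe sets of the _a_at, _s_at and _x_at kinds, a 1.5-fold threshold and counting only genes above background on both arrays. The steps were tested on simulated data.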

Additional observations from a re-analysis of the deposited data

How the results depend on the processing

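No paired analysis was possible because each group holds 1 array. Of 64 alternative ratios of the 8 measured BCL2 family genes, all 64 stayed within the single-probe-set scatter of the reported value, and 0 genes passed 2-fold under any of the alternatives tried. Many of the 64 could hardly move: changing or dropping the floor left these ratios almost as they were. A gene with 1 probe set above background also has no other set to enter a median. Mcl1 (to 0.04), Bak1 (to -0.05) and Bcl2l11 (to -0.01) changed sign under quantile normalization or loess, and Bcl2l11 reached 0.16 by the median over its probe sets. The difference between survival and death medians ran from -0.13 to 0.05 over 8 alternatives. Of 88 alternative medians, 84 moved by less than the error that the scatter gives a median. The exceptions were the death receptor pathway, at 0.049 under the 75th percentile floor, 0.044 under the 99th percentile floor and 0.049 without any, and genes for turnover of MCL1 and BIM, at 0.15 when probe sets of the _a_at, _s_at and _x_at kinds were omitted; the cause of the latter was not tested. The death receptor list gained Fasl under the lower floor and without one, and lost Tnfsf10 and Tnfrsf10b under the higher floor, so its median then covered 9 or 6 genes in place of 8. Related genes past 2-fold numbered 2 higher under the 75th percentile floor (Fas and Tnfsf10), and 3 higher and 1 lower with no floor, where Bcl2l14 and Bcl2l15, below background on both arrays, were added. Signal near background limits Bcl2, Bak1 and Tnfsf10, and the lack of a second array per group limits every ratio.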
